A study of Mus musculus with 18 samples.

Results

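The genes described here carry pyruvate into the tricarboxylic acid (TCA) cycle and turn the cycle, together with the enzymes that regulate that entry or branch from it. They were taken by symbol from a list of 33 genes, each represented by its brightest probe set on a whole-transcript mouse array, and 32 of the 33 were measured. Mpc2, which encodes the partner of Mpc1 in the mitochondrial pyruvate carrier, was not analysed here because no probe set carried its name in the annotation used. The series held values for 19938 genes, and all 32 measured genes passed the filter on low signal in each fit.

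The 18 arrays fell into 6 groups of 3, all from mice back-crossed to C57BL/6. Soleus KO and quadriceps KO were muscles of mice with a floxed EglN1 locus and a tamoxifen-inducible Cre recombinase active in skeletal muscle, and soleus WT and quadriceps WT came from mice with an unfloxed EglN1 locus that carried the same Cre. All mice of these 4 groups received tamoxifen over 3 days before harvest, so the controls shared both the Cre and the drug. The Cre promoter and the ages were not given in the sources used here, and numbers in the labels, read here as animal numbers, joined the 2 muscles of 6 mice. In a separate experiment, EglN1 wild-type mice received the EglN inhibitor FG-4497 at 50 mg/kg into the peritoneum or vehicle, and the heart was taken. Values are log2 signals made by robust multi-array average (RMA), on which a difference of 1 is a factor of 2. A gene was called changed at a Benjamini-Hochberg adjusted p under 0.05, computed with limma over all genes tested.

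Pyruvate from glycolysis enters mitochondria through the carrier Mpc1 and Mpc2. The pyruvate dehydrogenase complex then turns it into acetyl-CoA, which citrate synthase feeds into the cycle. Pyruvate dehydrogenase kinases switch the complex off by phosphorylating it and the phosphatases switch it on again. EglN1, also called PHD2, marks the hypoxia-inducible factors (HIF) for destruction when oxygen is present, and Pdk1 is a well known HIF target. Slow oxidative muscle such as the soleus, and heart, rely more on the cycle than the mostly fast fibres of the quadriceps do.

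The targeted gene was lower in the muscles labelled KO but was not called. Egln1 had signals of 11.03, 11.07 and 11.12 in soleus KO, against 11.29, 11.22 and 11.31 in soleus WT, a log2 difference of -0.20 (adjusted p = 0.438). In quadriceps KO it read 10.87, 10.67 and 10.92, against 10.94, 10.99 and 10.95 in quadriceps WT, a difference of -0.14 (adjusted p = 0.47). Thus all 3 KO arrays lay below the WT arrays in each muscle, by a small margin. Whether the probe set lies in the deleted part of the gene is not given in the sources used here. The labelled tissues matched the means of their markers. Slow fibre markers averaged 13.48 to 13.52 in soleus KO and 13.48 to 13.56 in soleus WT, against 7.60 to 9.51 in quadriceps KO and 7.53 to 8.78 in quadriceps WT. Cardiomyocyte markers averaged 11.97 to 12.05 in FG-4497 hearts and 11.91 to 12.06 in vehicle hearts. They averaged 8.03 to 8.10 in soleus KO, 7.99 to 8.07 in soleus WT, 7.88 to 8.04 in quadriceps KO and 7.98 to 8.43 in quadriceps WT. Of the 8 cardiomyocyte markers, 6 were called higher and 1 lower in vehicle heart than in WT soleus, and likewise against WT quadriceps. Some muscle arrays stood apart. Among soleus WT arrays, the fast myosin Myh4 ranged from 8.99 to 13.31. Quadriceps KO replicate 2 had the highest slow myosin Myh7 of its muscle, at 9.39, and quadriceps WT replicate 2 read 7.94 for the cardiac troponin Tnni3, above the 6.45 to 6.66 of the other quadriceps arrays. Results that depended on single arrays are given with those arrays left out.

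The DNA before the start sites of Pdk1, Pdk3 and Pdk4 is shown because each lay higher in every FG-4497 heart array than in vehicle, though none was called. That of Idh1 is shown because it was the member called in KO muscle. Each line gives the 250 bases before an annotated start, 5′ to 3′ on the gene's strand, from RefSeq with the GRCm38.p6 build. Capitals mark ACGTG or GCGTG, the core of the element that HIF binds, read on either strand, so that CACGT and CACGC are the same cores on the other strand, and overlapping matches are all marked.
Pdk1, outer start (chr2:71872974-71873223, strand plus): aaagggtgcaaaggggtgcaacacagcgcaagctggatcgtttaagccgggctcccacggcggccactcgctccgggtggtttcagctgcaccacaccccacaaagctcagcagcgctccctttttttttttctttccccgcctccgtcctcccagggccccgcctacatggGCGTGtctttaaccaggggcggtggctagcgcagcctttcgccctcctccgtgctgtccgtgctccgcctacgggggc
Pdk1, inner start (chr2:71874654-71874903, strand plus): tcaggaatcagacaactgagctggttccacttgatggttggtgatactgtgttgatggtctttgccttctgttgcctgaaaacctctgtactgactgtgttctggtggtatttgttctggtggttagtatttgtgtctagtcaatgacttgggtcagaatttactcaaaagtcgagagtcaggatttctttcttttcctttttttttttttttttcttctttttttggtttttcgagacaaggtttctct
Pdk3 (chrX:93832151-93832400, strand minus): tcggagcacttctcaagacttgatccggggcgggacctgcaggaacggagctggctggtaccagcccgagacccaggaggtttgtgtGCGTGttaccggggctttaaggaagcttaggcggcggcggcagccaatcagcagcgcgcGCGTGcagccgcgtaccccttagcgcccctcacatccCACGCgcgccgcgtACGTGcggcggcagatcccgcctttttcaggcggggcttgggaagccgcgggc
Pdk4 (chr6:5496279-5496528, strand minus): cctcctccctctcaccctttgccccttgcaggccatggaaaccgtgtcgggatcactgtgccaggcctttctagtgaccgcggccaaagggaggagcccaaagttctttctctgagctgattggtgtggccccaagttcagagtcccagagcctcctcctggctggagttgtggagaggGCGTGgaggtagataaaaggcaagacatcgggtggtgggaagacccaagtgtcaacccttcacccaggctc
Idh1, outer start (chr1:65186480-65186729, strand minus): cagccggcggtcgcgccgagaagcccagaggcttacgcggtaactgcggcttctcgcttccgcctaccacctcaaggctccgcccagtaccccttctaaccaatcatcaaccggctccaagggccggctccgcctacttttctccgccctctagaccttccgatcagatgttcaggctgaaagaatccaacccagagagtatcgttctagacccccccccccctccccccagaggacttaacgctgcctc
Idh1, inner start (chr1:65179143-65179392, strand minus): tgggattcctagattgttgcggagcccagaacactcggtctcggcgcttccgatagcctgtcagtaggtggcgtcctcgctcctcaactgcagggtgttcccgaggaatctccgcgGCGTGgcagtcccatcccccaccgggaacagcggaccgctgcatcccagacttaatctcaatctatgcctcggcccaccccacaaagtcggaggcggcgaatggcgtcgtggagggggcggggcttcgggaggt

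The outer Pdk1 start had 1 such core before it and the inner start 0. The Pdk3 window held 4 and the Pdk4 window 1. The inner Idh1 start had 1 core before it and the outer start 0. Over all 32851 windows of this length in the table, 38.6% held at least 1 core, and 27 of 41 windows of 30 listed genes did, so a core is common and its presence is only a description. The 41 windows included 6 of Ogdh, some of which overlap. A longer motif, AAGGTCA, bound by estrogen-related receptors, was in 4.08% of all windows and in 0 of the 41. Pdp1, Me2 and Idh3a had no entry and were not analysed for motifs here.

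In EglN1 KO muscle, most genes of pyruvate entry and the cycle differed little from WT. Idh1 was the exception. It encodes the cytosolic isocitrate dehydrogenase, which makes NADPH outside the mitochondrial cycle, and its signal was higher by 0.43 in soleus KO and by 0.46 in quadriceps KO on the log2 scale. No gene of the pyruvate dehydrogenase complex, no kinase and no enzyme of the mitochondrial cycle was called in either muscle.

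In soleus, Idh1 had signals of 10.66, 10.64 and 10.32 in KO, against 10.06, 10.22 and 10.06 in WT. The 3 KO arrays lay above the 3 WT arrays, and KO replicate 3 was the closest to WT. The log2 difference was 0.43 (SE 0.09), with an adjusted p of 0.0984, so Idh1 was not called in soleus. In quadriceps, Idh1 read 10.13, 9.96 and 10.00 in KO, against 9.65, 9.48 and 9.57 in WT. Again the groups did not overlap, and the difference of 0.46 (SE 0.09, adjusted p = 0.0415) was called. Averaged over both muscles, the difference was 0.45 (SE 0.07, 95% interval 0.30 to 0.59), a fold of 1.36, with an adjusted p of 0.00767. The call in quadriceps alone was lost in 9 of 12 refits that each left out 1 muscle array, with adjusted p up to 0.154, while the averaged call was kept in 12 of 12, with adjusted p from 0.00101 to 0.035. Those 9 refits left out any 1 of the 3 quadriceps KO or the 3 quadriceps WT arrays, soleus KO replicate 1, or soleus WT replicate 1 or 3. In soleus, leaving out KO replicate 3 gave 0.54 with an adjusted p of 0.011. The soleus effect minus the quadriceps effect was -0.03 (95% interval -0.28 to 0.22).

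Adipocyte markers, which come from fat between the fibres, also had higher means in KO muscle. All 6 of the tested adipocyte markers had a KO mean above the WT mean in both muscles and 0 were called. The mean signal of the 7 measured adipocyte markers, which include Ucp1 below the filter, was 8.05 to 8.64 in soleus KO, against 7.78 to 8.66 in soleus WT, and 7.95 to 8.17 in quadriceps KO, against 7.56 to 8.13 in quadriceps WT, so the groups overlapped. With this mean as a covariate, the averaged Idh1 difference was 0.40 (adjusted p = 0.0284) and the quadriceps difference 0.42 (adjusted p = 0.0822). In bulk tissue, fewer cells of a type and less RNA per cell cannot be told apart. Of the 20 tested genes nearest to Idh1 along the chromosome, 1, Klf7, was called in quadriceps, where 0.683% of all genes were, and 6 had an unadjusted p under 0.05, where 11.6% of all genes did. The differences of the 20 ranged from -0.32 to 0.29, with a median of 0.01.

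**Figure D1:**
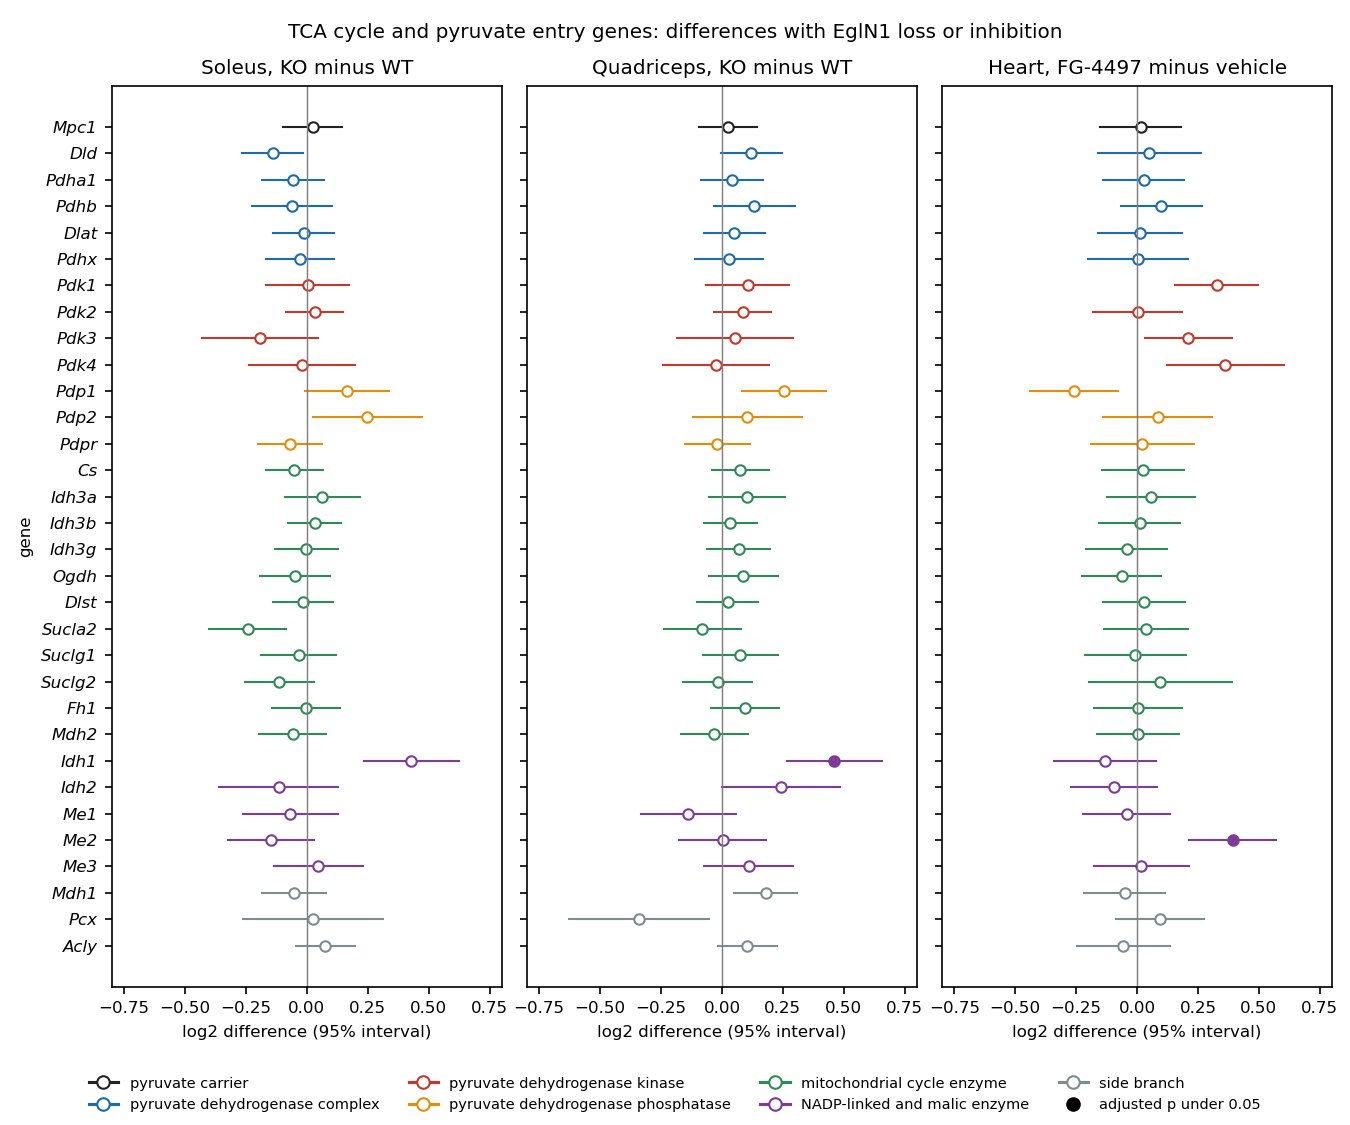
Log2 differences (x axes) of the 32 genes (y axis, grouped and coloured by role) for KO minus WT in soleus and in quadriceps and for FG-4497 minus vehicle in heart, with 95% intervals from limma. Filled circles mark an adjusted p under 0.05, which only Idh1 in quadriceps and Me2 in heart reached, and most other points lie close to 0.

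At an adjusted p under 0.05, 0 of 32 genes were called by limma in soleus, where 0.18% of the 13318 tested genes were, and 4 had an unadjusted p under 0.05, where 7.23% of all genes did. In quadriceps 1 of 32 was called, against 0.683% of all genes, and 5 had an unadjusted p under 0.05, against 11.6%. For the average over both muscles 1 of 32 was called, against 0.833% of all genes. The median KO difference of the 32 genes was -0.02 in soleus, where all tested genes had a median of 0.00, and 0.07 in quadriceps, where all tested genes had a median of -0.02. In soleus 11 genes lay above 0 and 21 below, where 50.3% of all tested genes lay above 0, and in quadriceps 25 lay above and 7 below, where 43.1% of all genes lay above. KO and WT arrays did not overlap for 8 of the 32 in soleus and 6 in quadriceps, where 12.2% and 16.5% of all tested genes were so separated.

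Besides Idh1, the smallest p-values in soleus belonged to genes that missed the threshold. Sucla2, the ATP-forming subunit of succinyl-CoA synthetase, read 11.59, 11.61 and 11.49 in KO, against 11.82, 11.67 and 11.92 in WT, a difference of -0.24 (SE 0.07, adjusted p = 0.339). Dld, the dihydrolipoamide dehydrogenase shared by the pyruvate and 2-oxoglutarate dehydrogenase complexes, read 11.30, 11.42 and 11.37 in KO, against 11.50, 11.57 and 11.44 in WT (difference -0.14, SE 0.06, adjusted p = 0.609). In both genes the KO arrays lay lower, with no overlap. Pdp2, a pyruvate dehydrogenase phosphatase, was separated the other way. It read 7.37, 7.08 and 7.12 in KO, against 6.85, 7.03 and 6.95 in WT (difference 0.25, SE 0.10, adjusted p = 0.622).

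In quadriceps the next genes after Idh1 also missed the threshold. Pdp1, the other catalytic phosphatase subunit and the calcium-sensitive one, read 11.61, 11.32 and 11.67 in KO, against 11.27, 11.34 and 11.23 in WT (difference 0.25, SE 0.08, adjusted p = 0.217). KO replicate 2 lay within the WT range. Without that array the Pdp1 difference was 0.36 with an adjusted p of 0.0382, and the average over both muscles was 0.26 with an adjusted p of 0.0169. Mdh1, the cytosolic malate dehydrogenase of the malate-aspartate shuttle, read 12.36, 12.27 and 12.37 in KO, against 12.06, 12.23 and 12.18 in WT, without overlap (difference 0.18, SE 0.06, adjusted p = 0.254). Pcx, pyruvate carboxylase, which replenishes oxaloacetate, read 10.69, 10.51 and 10.35 in KO, against 10.89, 10.77 and 10.91 in WT (difference -0.34, SE 0.13, adjusted p = 0.337). Its 3 KO arrays all lay below the WT arrays. Over both muscles, the differences of Pdp1 (0.21, adjusted p = 0.16), Sucla2 (-0.16, adjusted p = 0.271) and Pdp2 (0.18, adjusted p = 0.417) followed Idh1 in rank and were not called.

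By role, the 5 measured genes of the pyruvate dehydrogenase complex (Pdha1, Pdhb, Dlat, Pdhx and Dld) all lay below 0 in soleus, from -0.14 to -0.01, and all above 0 in quadriceps, from 0.03 to 0.13, with 0 called by limma in either and 1, Dld in soleus, at an unadjusted p under 0.05. The 11 enzymes of the mitochondrial cycle ranged from -0.24 to 0.06 in soleus and from -0.08 to 0.10 in quadriceps, also with 0 called and 1, Sucla2 in soleus, at an unadjusted p under 0.05. The 4 kinases ranged from -0.19 to 0.03 in soleus and from -0.02 to 0.11 in quadriceps. Pdk1 itself read 10.37, 10.33 and 10.51 in soleus KO, against 10.54, 10.28 and 10.38 in soleus WT, a difference of 0.00 (95% interval -0.17 to 0.17). In quadriceps KO it read 9.29, 9.24 and 9.37, against 9.11, 9.31 and 9.17 in quadriceps WT, and the groups overlapped. Pdk3 had no overlap in soleus, at 6.43, 6.44 and 6.50 in KO, against 6.62, 6.74 and 6.59 in WT (difference -0.19, adjusted p = 0.815).

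The difference between the KO effects of the 2 muscles was tested directly, and 0 of 32 genes were called, as were 0 of all 13318 genes. At an unadjusted p under 0.05 there were 3 of 32, against 6.41% of all genes. The soleus effect was the lower one in 28 of the 32 genes, whereas the soleus effect was the higher one in 56.9% of all tested genes. Dld had the smallest p, with -0.26 (SE 0.07, adjusted p = 0.569). It was lower in every soleus KO array than in soleus WT and, at 11.20, 11.19 and 11.17 in quadriceps KO against 11.11, 11.09 and 11.01 in quadriceps WT, higher in every quadriceps KO array. Mdh1 (-0.23, adjusted p = 0.68), Idh2 (-0.36, adjusted p = 0.739) and Pcx (0.37, adjusted p = 0.773) came next. Markers of several cell types did the same. The soleus effect was the lower one for all 9 slow fibre, all 6 fibroblast, 5 of 6 macrophage and leukocyte and 4 of 6 endothelial markers. It was also the lower one for 4 of 6 adipocyte and both erythroid markers. In contrast, it was the higher one for 6 of 7 cardiomyocyte and 5 of 9 fast fibre markers. In each of these lists 0 were called, and 1 slow fibre and 1 cardiomyocyte marker had an unadjusted p under 0.05. The part of these cells in the differences was not tested.

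In hearts of mice given FG-4497, Me2 was higher. Of the 4 pyruvate dehydrogenase kinases, 3 lay above vehicle in every array without passing the test, and 1 of them, Pdk3, had low signals. Over all tested genes, 15.5% had FG-4497 and vehicle arrays that did not overlap, in either direction. Me2 encodes the mitochondrial malic enzyme that turns malate into pyruvate with NAD. The genes of the pyruvate dehydrogenase complex and of the cycle differed from vehicle by 0.10 or less. Pdp1, which opposes the kinases, lay below vehicle in every array.

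Me2 read 7.86, 7.78 and 7.88 in FG-4497 hearts, against 7.53, 7.38 and 7.43 in vehicle hearts. The groups did not overlap, and the log2 difference of 0.39 (SE 0.08, fold 1.31, adjusted p = 0.0393) made Me2 the 1 called gene of the 32, where 1.77% of the 13431 genes tested in heart were called. Leaving out any 1 of the 6 heart arrays took Me2 over the threshold, with differences from 0.36 to 0.43 and adjusted p from 0.0568 to 0.153. Me1 and Me3, the cytosolic and the other mitochondrial malic enzyme, differed by -0.04 and 0.02 and were not called. In the KO muscles Me2 differed by -0.15 in soleus and 0.00 in quadriceps and was not called.

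Pdk1, Pdk4, Pdp1 and Pdk3 had the next smallest p-values, in that order. Pdk1 read 10.36, 10.31 and 10.29 in FG-4497 hearts, against 9.95, 9.98 and 10.05 in vehicle hearts, a difference of 0.33 (SE 0.08, 95% interval 0.16 to 0.50, adjusted p = 0.0706). Pdk4, the kinase induced by fasting and fatty acids, read 12.95, 12.87 and 13.13 with FG-4497, against 12.56, 12.82 and 12.48 with vehicle (difference 0.36, SE 0.11, adjusted p = 0.172). Pdk3 read 6.68, 6.79 and 6.73 with FG-4497, against 6.46, 6.60 and 6.51 with vehicle (difference 0.21, SE 0.08, adjusted p = 0.336). Its signals were low, near the heart filter level of 6.26 and the medians of the 18 arrays, 6.68 to 6.81. In Pdk1, Pdk4 and Pdk3 each FG-4497 array lay above each vehicle array. Pdk2 differed from them: it read 12.35, 12.18 and 12.30 with FG-4497, against 12.24, 12.27 and 12.33 with vehicle, a difference of 0.00 (95% interval -0.18 to 0.19). Pdp1 read 10.15, 10.10 and 10.05 with FG-4497, against 10.40, 10.26 and 10.42 with vehicle, and so lay lower without overlap (difference -0.26, SE 0.08, adjusted p = 0.202). Pdp2 (0.08) and the regulatory subunit Pdpr (0.02) lay near 0.

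**Figure D2:**
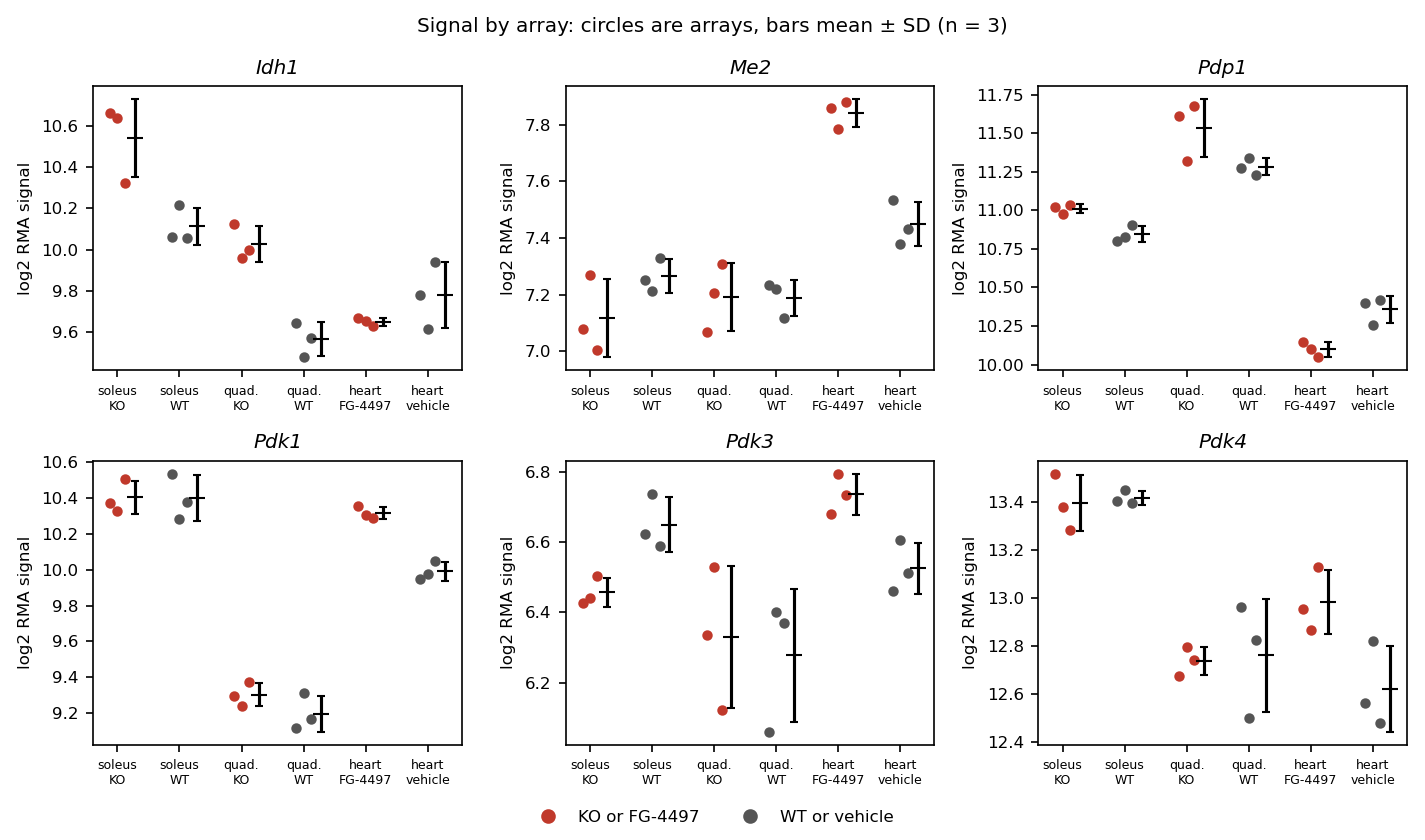
Log2 RMA signal (y axes) of Idh1, Me2, Pdp1, Pdk1, Pdk3 and Pdk4 in the 18 arrays by group (x axes), with bars for mean ± SD (n = 3). Idh1 is higher in KO than in WT in both muscles, Me2, Pdk1, Pdk3 and Pdk4 are higher in FG-4497 than in vehicle hearts, and Pdp1 is lower there.

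The other genes differed little in heart. The 5 genes of the pyruvate dehydrogenase complex ranged from 0.00 to 0.10 and the 11 cycle enzymes from -0.06 to 0.10, with 0 called by limma and 0 at an unadjusted p under 0.05. The median of the 32 genes was 0.02, against 0.00 for all tested genes. FG-4497 and vehicle arrays did not overlap for 8 of the 32, where 15.5% of all tested genes were so separated, and 5 had an unadjusted p under 0.05, where 10.6% of all genes did. Of 20 tested genes around Me2 on its chromosome, 1, Smad7, was called, where 1.77% of all genes were, and 3 had an unadjusted p under 0.05. Markers of other cells were also compared in the same hearts. The 2 measured erythroid markers of 5 listed averaged 8.49 to 8.90 in FG-4497 hearts, against 7.85 to 8.18 in vehicle hearts, and Alas2, the first enzyme of heme synthesis in red cells, was called (0.96, adjusted p = 0.00799). The 6 fibroblast markers averaged 9.47 to 9.51 in FG-4497 hearts, against 9.55 to 9.60 in vehicle hearts, with all 6 below vehicle and 0 called. The 6 endothelial markers averaged 10.32 to 10.43 in FG-4497 hearts, against 10.40 to 10.48 in vehicle hearts, so these groups overlapped. Of the endothelial markers 2 lay above vehicle and 4 below, from -0.33 to 0.315, with 0 called. The part of the erythroid, fibroblast and endothelial markers in the differences of Me2, the kinases and Pdp1 was not tested.

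To test whether heart and muscle differed in their responses, the FG-4497 effect in heart was set against the mean KO effect in muscle in a fit of all 18 arrays. This comparison was added after the values were seen. Of the 32 genes 1 was called higher and 2 lower, where 2.67% of 13373 tested genes were called, 1.68% higher and 0.987% lower. Idh1 was lower by this measure, at -0.58 (SE 0.12, adjusted p = 0.00909): it was higher in KO muscle and read 9.67, 9.65 and 9.63 in FG-4497 hearts, against 9.78, 9.62 and 9.94 in vehicle hearts. Pdp1 was also lower, at -0.47 (SE 0.10, adjusted p = 0.0119), and Me2 higher, at 0.46 (SE 0.10, adjusted p = 0.0137). All 3 calls were kept in 23 of 23 alternatives. Most of these left out 1 array, and none used a block for the replicate number in the titles or a covariate for cell markers. Pdk1 (0.27, SE 0.09, adjusted p = 0.157) and Pdk4 (0.38, SE 0.14, adjusted p = 0.181) were not called. Tissue, drug or gene loss, and experiment all differ between these effects and cannot be told apart.

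Between the 2 muscles, most of the list differed. Most genes of the list had higher signals in soleus than in quadriceps. The largest such difference was in Idh2, the mitochondrial NADP-dependent isocitrate dehydrogenase, at 3.84 times the quadriceps signal in KO mice and 4.93 times in WT mice. Pcx and Me1, the cytosolic malic enzyme that makes NADPH, went the other way. All 5 genes of the pyruvate dehydrogenase complex and 8 of the 11 cycle enzymes were higher in soleus, in KO and in WT mice. The other cycle enzymes, Idh3a, Sucla2 and Suclg1, were not called, with soleus minus quadriceps differences of -0.16, -0.11 and -0.15 in KO.

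In KO mice 20 of 32 genes were higher in soleus, 4 were lower and 8 were not called, where 41.9% of all genes were called, 21.9% higher in soleus and 20% lower. In WT mice 21 were higher, 4 lower and 7 not called, where 45.7% of all genes were called, 21.3% higher and 24.4% lower. The 24 called genes in KO were called in the same direction in WT, and Pdk3 was called in WT alone. Whether Pdk3 differs between genotypes in this respect was tested as the difference of KO effects, with an adjusted p of 0.844. Its signals were low, at 6.06, 6.40 and 6.37 in quadriceps WT, near the muscle filter level of 6.19. The median soleus minus quadriceps difference of the list was 0.23 in KO and 0.29 in WT.

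In KO mice Idh2 read 13.04, 12.97 and 13.10 in soleus, against 11.00, 10.90 and 11.38 in quadriceps (difference 1.94, SE 0.10, adjusted p = 1.13e-08). Quadriceps KO replicate 3 was the highest of the quadriceps arrays. In WT mice Idh2 read 13.12, 13.19 and 13.14 in soleus, against 11.03, 10.88 and 10.65 in quadriceps, a difference of 2.30 (SE 0.10, adjusted p = 2.11e-09). Pdk1 differed by 1.10 in KO (SE 0.07, adjusted p = 7.13e-08) and, with 10.54, 10.28 and 10.38 in soleus WT against 9.11, 9.31 and 9.17 in quadriceps WT, by 1.20 in WT (SE 0.07, adjusted p = 2.5e-08). Mdh1 differed by 0.78 in KO (SE 0.06, adjusted p = 1.49e-07) and, with 13.19, 13.09 and 13.22 in soleus WT against 12.06, 12.23 and 12.18 in quadriceps WT, by 1.01 in WT (SE 0.06, adjusted p = 1.16e-08). In Idh2, Pdk1 and Mdh1 the soleus arrays lay far above the quadriceps arrays.

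Pcx differed by -1.58 in KO (SE 0.12, adjusted p = 3.18e-07) and, with 8.85, 9.26 and 8.61 in soleus WT against 10.89, 10.77 and 10.91 in quadriceps WT, by -1.95 in WT (SE 0.12, adjusted p = 3.71e-08). The spread of Pcx among soleus WT arrays, an SD of 0.33, was the widest of any member in any group. Its highest soleus WT value was in replicate 2, the array with the highest Myh4, and its lowest in replicate 3, the array with the lowest. The mean of the adipocyte markers had the same order, at 7.87, 8.66 and 7.78 in the soleus WT arrays. The part of fibre or fat content in this spread was not tested. Me1 differed by -1.30 in KO (SE 0.08, adjusted p = 5.64e-08) and, with 10.24, 10.37 and 10.09 in soleus WT against 11.49, 11.70 and 11.60 in quadriceps WT, by -1.37 in WT (SE 0.08, adjusted p = 2.67e-08). The second probe sets of Me1 and Suclg2 were likewise separate between the muscles in the same direction. Suclg2, the GTP-forming subunit of succinyl-CoA synthetase, was higher in soleus by 0.59 in KO (SE 0.06, adjusted p = 4.74e-06) and 0.68 in WT (SE 0.06, adjusted p = 9.52e-07), while its counterpart Sucla2 differed by -0.11 in KO and 0.06 in WT and was not called.

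The regulators of pyruvate dehydrogenase split by gene. Pdk4 was higher in soleus by 0.66 in KO (SE 0.09, adjusted p = 7.53e-05) and by 0.65 in WT (adjusted p = 6.68e-05), and Pdk2 differed by -0.11 in KO (adjusted p = 0.106) and -0.05 in WT (adjusted p = 0.425). Pdp1 was lower in soleus, by -0.53 in KO (SE 0.07, adjusted p = 6.93e-05) and -0.44 in WT (adjusted p = 0.000278). Pdp2 was higher in soleus, by 0.42 in KO (SE 0.09, adjusted p = 0.00281) and 0.28 in WT (adjusted p = 0.0278). Thus the 2 catalytic phosphatase subunits differed in opposite directions between the muscles.

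**Figure D3:**
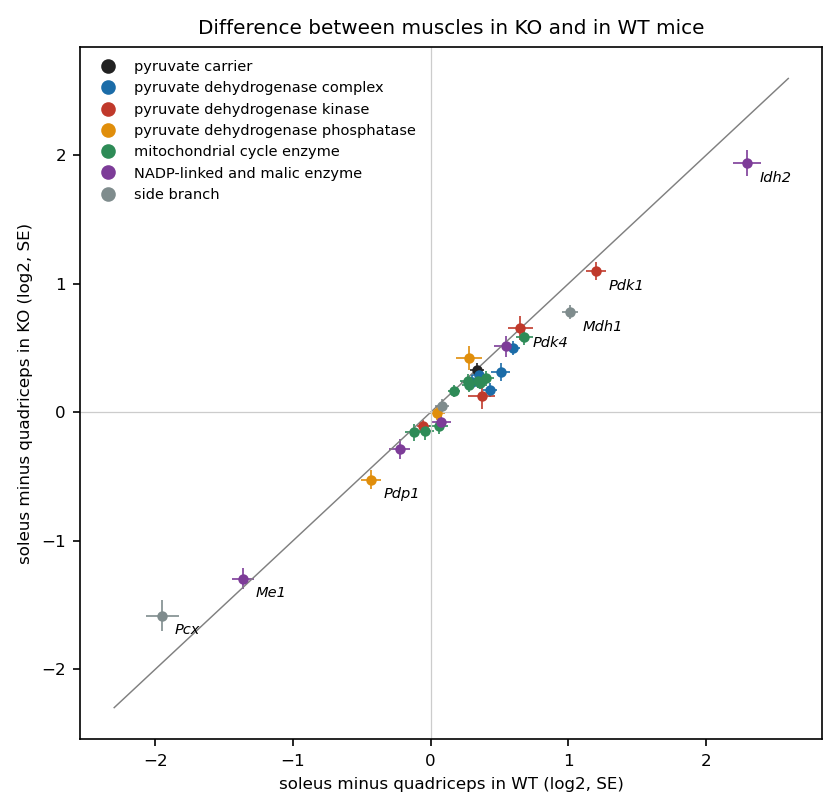
Soleus minus quadriceps log2 difference of each of the 32 genes in KO mice (y axis) and in WT mice (x axis), coloured by role, with bars for the standard error and the line of equality. The points lie near the line, from Pcx at -1.58 in KO and -1.95 in WT to Idh2 at 1.94 in KO and 2.30 in WT.

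The level of each gene was also ordered over the 3 control tissues. This comparison joins arrays of different experiments, and the labels of the hearts name neither Cre nor tamoxifen, so tissue and experiment cannot be told apart. Signal was highest in vehicle heart for 15 of the 32 genes, in WT soleus for 11 and in WT quadriceps for 6. It was lowest in WT quadriceps for 22, in vehicle heart for 7 and in WT soleus for 3. The range over the 3 tissues exceeded 1 for 6 genes and was under 0.5 for 12, and the median SD within a group was 0.07.

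Fewer genes of the list were called between vehicle heart and WT soleus than between vehicle heart and WT quadriceps, as among all genes. Of the 32 genes 7 were higher in heart, 11 lower and 14 not called, where 56.8% of all genes were called, 29.6% higher and 27.2% lower. Pdp2 read 8.06, 8.04 and 8.36 in vehicle heart, against 6.85, 7.03 and 6.95 in WT soleus (difference 1.21, SE 0.11, adjusted p = 2.26e-08). Pdk4 read 12.56, 12.82 and 12.48 in vehicle heart, against 13.40, 13.45 and 13.39 in WT soleus (difference -0.79, SE 0.11, adjusted p = 6.07e-06). Pdp2 was thus well above and Pdk4 well below the soleus level, with no overlap in either. Pcx (-0.55, adjusted p = 0.000679), Pdpr (-0.54, adjusted p = 6.11e-06) and Pdp1 (-0.49, adjusted p = 3.21e-05) were lower in heart, and Suclg1, the subunit common to both succinyl-CoA synthetases, was higher (0.52, adjusted p = 2.17e-05). Idh2 did not pass the test between heart and soleus (0.13, 95% interval -0.08 to 0.35).

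Against WT quadriceps, 20 genes were higher in vehicle heart, 6 lower and 6 not called, where 63.1% of all genes were called, 31.9% higher and 31.2% lower. Idh2 read 13.21, 13.31 and 13.34 in vehicle heart, 2.43 above WT quadriceps (SE 0.10, adjusted p = 4.44e-13). Pcx read 8.37, 8.30 and 8.40 in vehicle heart and was lower by -2.50 (SE 0.12, adjusted p = 2.87e-12). Pdp2 (1.49, adjusted p = 7.75e-10) and Mdh1 (1.13, adjusted p = 8.38e-12) were higher in heart, and Me1 (-1.17, adjusted p = 1.05e-09) and Pdp1 (-0.92, adjusted p = 7.34e-09) lower. Neighbours in the order of tissues that did not pass the test include heart and soleus for Cs, Mdh1, Mdh2, Fh1, Dlst and Idh3b, and heart and quadriceps for Dld, Pdk4, Idh1, Sucla2, Me3 and Acly. Acly, ATP citrate lyase of fat synthesis, passed none of these tests.

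**Figure D4:**
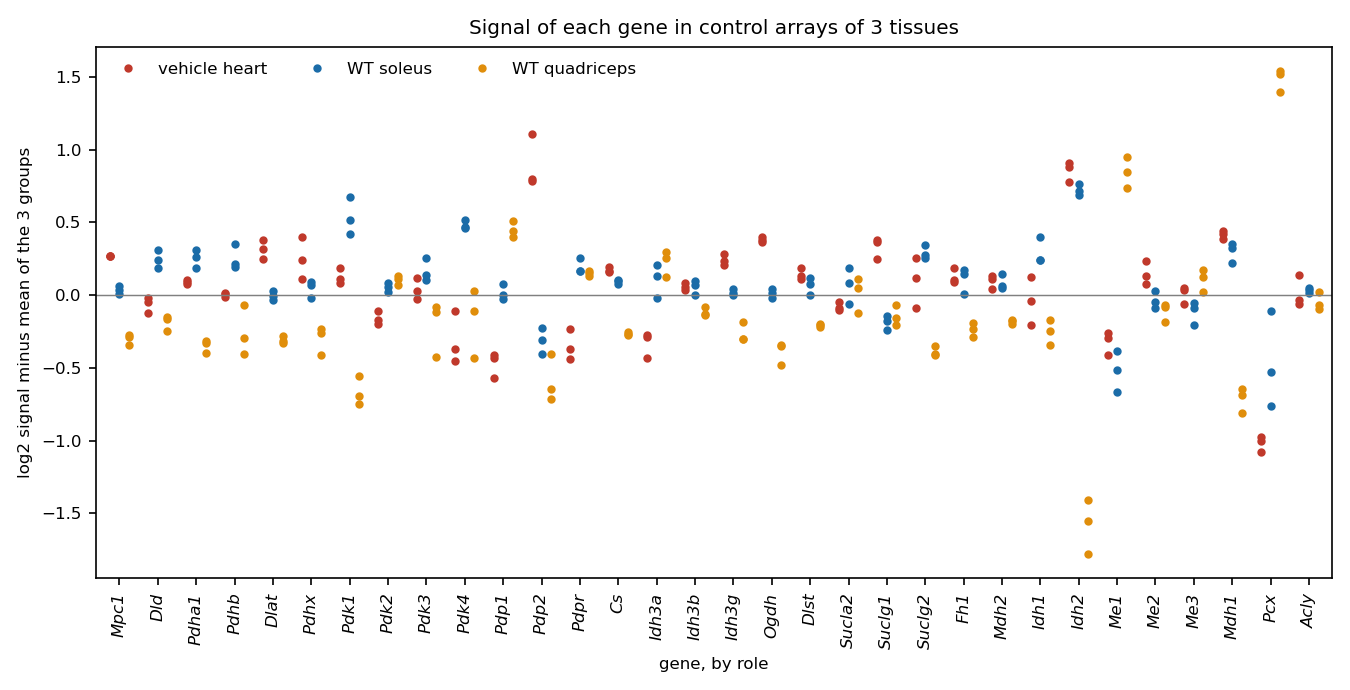
Log2 signal of each gene (x axis, by role) in the 3 arrays each of vehicle heart, WT soleus and WT quadriceps, after subtracting the mean of the 3 group means of that gene (y axis). Idh2, Mdh1 and Pdk1 are lowest and Pcx, Me1 and Pdp1 highest in quadriceps, and Pdp2 is highest in heart.

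**Figure D5:**
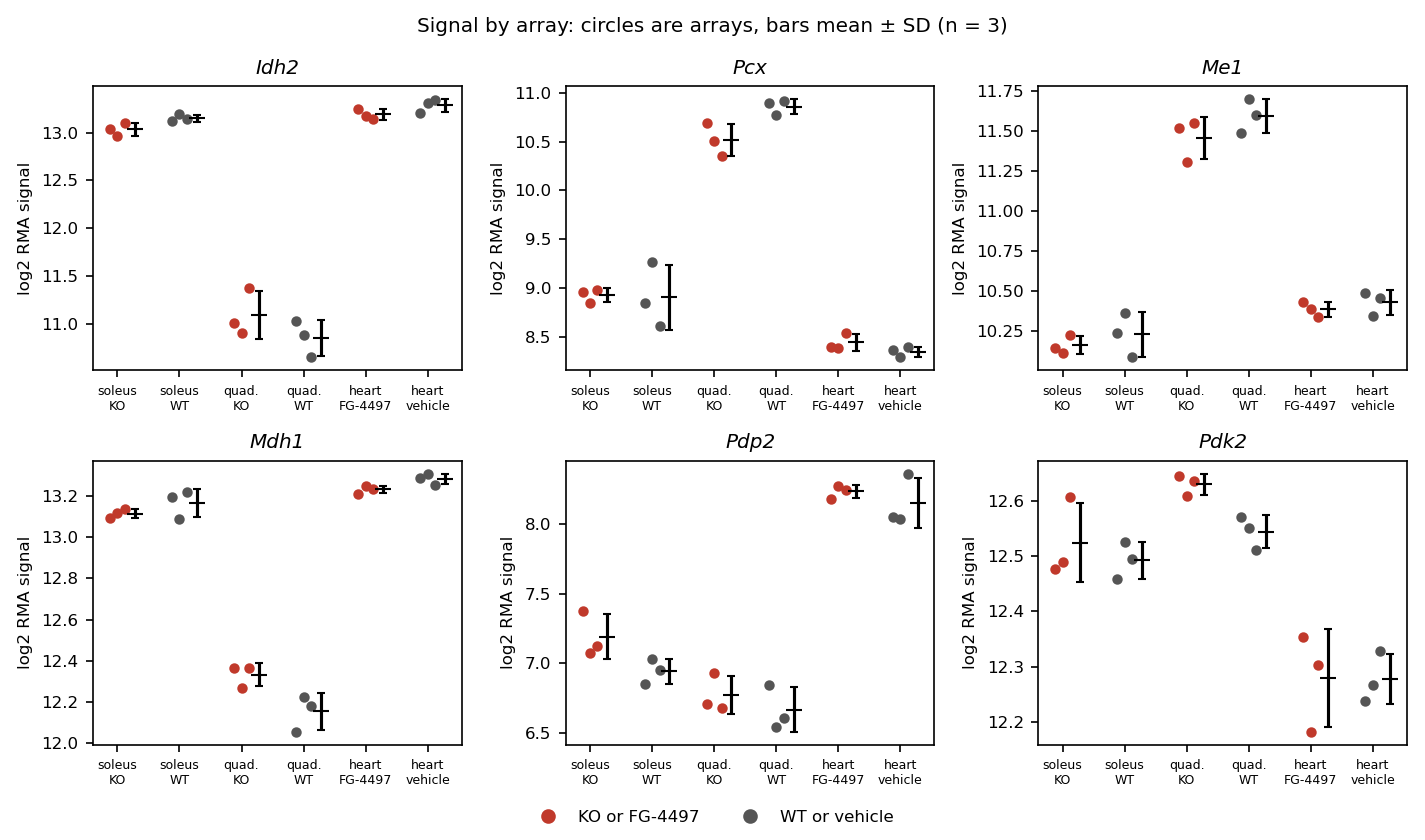
Log2 RMA signal (y axes) of Idh2, Pcx, Me1, Mdh1, Pdp2 and Pdk2 in the 18 arrays by group (x axes), with bars for mean ± SD (n = 3). Idh2 and Mdh1 are low and Pcx and Me1 high in both quadriceps groups, Pdp2 is high in both heart groups, and Pcx in soleus WT spreads from 8.61 to 9.26.

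Subunits of one enzyme did not share one order. NAD-dependent isocitrate dehydrogenase is built from the products of Idh3a, Idh3b and Idh3g. Idh3g was higher in vehicle heart than in WT soleus (0.22, adjusted p = 0.00323) and WT quadriceps (0.50, adjusted p = 5.09e-07). Idh3a, the catalytic subunit, was lower in vehicle heart than in both, by -0.44 (adjusted p = 3.97e-05) and -0.56 (adjusted p = 1.79e-06). Idh3b was level between heart and soleus (0.00, 95% interval -0.11 to 0.11).

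Other genes of the pathway were taken from 5 lists of 46 genes, 44 of them measured, and gave few calls with KO or FG-4497. In soleus KO, quadriceps KO and their average, limma called 0 of these 44, where it called 0.18%, 0.683% and 0.833% of all genes. At an unadjusted p under 0.05 there were 2 in soleus, where 7.23% of all genes were, and 4 in quadriceps, where 11.6% were. The smallest adjusted p in soleus belonged to Slc25a18, a mitochondrial glutamate carrier (-0.35, adjusted p = 0.149), and that in quadriceps to Hif1a (0.16, adjusted p = 0.282). In heart 1 of the 44 was called, where 1.77% of all genes were, and 5 had an unadjusted p under 0.05, where 10.6% did. Foxo1, a transcription factor known to induce Pdk4, read 9.76, 9.62 and 9.67 in FG-4497 hearts, against 9.10, 8.82 and 9.04 in vehicle hearts (difference 0.70, SE 0.09, adjusted p = 0.00374). Ppard, a nuclear receptor that also induces Pdk4, read 9.78, 9.96 and 10.11 with FG-4497, against 9.52, 9.54 and 9.48 with vehicle (0.43, adjusted p = 0.0525). Both lay higher in every FG-4497 array, and only Foxo1 passed the test. Of the 10 listed regulators, 5 lay above vehicle and 5 below, with a median of -0.01 and a lowest difference of -0.25. The list also held Ppara, Pparg, Ppargc1a, Ppargc1b, Esrra, Esrrg, Hif1a and Epas1, and Foxo1 was the only regulator called. The part of Foxo1 and Ppard in the Pdk4 difference was not tested. Pgd of the pentose phosphate pathway (0.25, adjusted p = 0.18), Gcsh of lipoylation (0.31, adjusted p = 0.412) and Ogdhl, a relative of Ogdh (0.09, adjusted p = 0.814), did not pass in heart.

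Between the muscles of WT mice 26 of the 44 were higher in soleus and 2 lower, where 21.3% of all genes were higher and 24.4% lower. Of the 10 regulators, 1, Ppard, was lower in soleus and 8 were higher, among them Esrrg (2.42, adjusted p = 8.12e-09), Ppara (1.83, adjusted p = 1.47e-08) and Ppargc1a (1.19, adjusted p = 2.75e-06), which drive oxidative genes. Of 16 further cycle and anaplerosis genes 9 were higher and 0 lower, including the transaminases Got1 (0.65, adjusted p = 5.85e-07) and Got2 (0.46, adjusted p = 2.11e-06). Of 7 carriers 4 were higher, led by the glutamate carrier Slc25a22 (1.32, adjusted p = 3.26e-07), and of 7 NADPH and acetyl-CoA genes 5 were higher, led by the acetyl-CoA synthetases Acss2 (1.45, adjusted p = 4.15e-09) and Acss1 (1.42, adjusted p = 2.24e-07). Of the 4 lipoylation genes 0 were higher and 1, Lipt2, was lower (-0.17, adjusted p = 0.0389). In vehicle heart Ogdhl was 3.44 above WT soleus (adjusted p = 1.6e-15), and Slc25a13, an aspartate and glutamate carrier, 4.003 above it (adjusted p = 2.61e-15).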

How the data were processed

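RNA from 18 mouse tissues was hybridised to whole-transcript arrays. The authors deposited log2 values made with RMA, per the submitters' processing notes. The sources used here give neither its version nor which arrays were normalized as 1 set. Of 35556 probe sets, 21789 named 1 gene, 1621 several and 12146 none in the annotation used. Symbols were updated by gene identifier for 21698 with RefSeq names of GRCm38.p6. Each gene took its brightest probe set, and a gene was tested if its mean reached percentile 40 of the probe-set means (6.19 in muscle, 6.26 in heart, 6.23 over all).

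Tests used limma 3.58.1 in R 4.3.3: lmFit and eBayes on 12 muscle arrays (13318 genes, animal as a random block, consensus correlation 0.17), 6 heart arrays (13431 genes) and all 18 (13373 genes, consensus correlation 0.20), after a check on simulated data. The correlation of paired deviations ran from -0.0005 to 0.38 over the 6 animals, whose numbers were read from the labels. Arrays have no read depth, so 3 arrays a group limit precision, and the smallest exact permutation p is 0.1. Labels call the samples biological replicates. Full values were given for genes called with KO or FG-4497, the 4 smallest p-values of those comparisons, the kinases, and the 6 called genes with the largest tissue differences. Pdpr, Me1, Me3, Idh3a, Idh3b and Idh3g values, and other genes beyond this rule, were added after their values were seen. The genes and lists were chosen with earlier results of these data known.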

Additional observations from a re-analysis of the deposited data

How the results depend on the processing

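Over 12 to 23 alternatives per comparison, 0 called values turned sign. Of 6528 single-gene values, those of Idh1 in the average over muscles stayed called in every alternative run for that comparison. So did those of the 3 genes called for the FG-4497 effect minus the KO effect. A block for the title number was not run for either comparison, and covariates for markers were not run for the latter. With the title number as a replicate block, the called genes of the list were 0 in quadriceps and 0 in heart, against 1 in each without it. Idh1 then had an adjusted p of 0.123 in quadriceps and Me2 one of 0.0664 in heart. The correlations of arrays with the same title number ran from -0.29 to 0.18, and those of arrays with the same animal number from -0.0005 to 0.38. These ranges overlap, so with 3 arrays a group they cannot show whether the title numbers pair the samples. In quadriceps the count was also 0 with no filter, with a covariate for adipocyte markers (chosen after seeing the data) or for slow fibre markers, and in a fit of that muscle alone. In heart it was 0 with no filter and 2 with a trended and robust prior, which added Pdk1 (adjusted p = 0.00981). In soleus it was 1, Idh1, with array weights (adjusted p = 0.02) or a trended and robust prior (adjusted p = 0.0488). Leaving out single arrays gave counts from 0 to 1 in soleus, 0 to 1 in quadriceps, 1 to 2 in the average over muscles and 0 to 0 in heart.

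Over all genes, leaving out single arrays gave 7 to 43 calls in soleus against 24 with all arrays, 27 to 98 in quadriceps against 91, 62 to 153 in the average against 111 and 137 to 193 in heart against 238. The 95% intervals of the list, not adjusted for the number of genes tested, had a median half-width of 0.14 in each muscle and 0.18 in heart. Smaller differences could not be resolved with 3 arrays a group. Larger ones also missed the adjusted threshold, such as Idh1 in soleus (0.43) and Pdk4 in heart (0.36). A gene that was not called may thus differ by more than these half-widths. Genes near the threshold between tissues lost their call in some alternatives. Between the muscles of WT mice Me3 did so in 5 and Pdp2 in 4, and between those of KO mice Dld did so in 2 and Me3 in 1. Pdk3 did so in 8 between vehicle heart and WT quadriceps. Between vehicle heart and WT soleus, 7 single-gene values lost a call over the 23 alternatives.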
